A study of Mus musculus with 19 samples.

Results

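In neural stem cells carrying wild-type histone H3.3, 541 sites of the corepressor CBFA2T2 lay at the end of a protein-coding gene and had no overlapping site in cells carrying the H3.3K27M mutant. They are the peaks of the H3.3WT CBFA2T2 ChIP-seq list that overlapped no peak of the H3.3K27M list by even 1 bp and whose summit lay within 1 kb of an annotated end of a RefSeq protein-coding gene. They made up 7.82% of the 6920 H3.3WT peaks (95% Wilson interval 7.21 to 8.47%) and 11.9% of the 4545 H3.3WT peaks at gene ends. The members were chosen by these measured values, the presence of a called peak in one list and its absence from the other, so their strength and the missing overlap are given as a description. A peak that is absent from a list did not reach the caller's limit in that library, which is not the same as no binding.

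The cells were NE-4C, a mouse neural stem cell line that lacks p53. In both genotypes H3f3a, a gene for H3.3, had been knocked out, and either HA-tagged wild-type H3.3 (H3.3WT) or HA-tagged H3.3K27M was then stably expressed. H3.3K27M has methionine in place of the lysine that carries H3K27 methylation and is known from diffuse midline glioma. A further line, with wild-type H3.3 and Cbfa2t2 knocked out as well, and all other libraries of the 19 described were not analysed here. CBFA2T2 ChIP had been done once per genotype with the antibody Bethyl A302-089A and peaks had been called against input DNA, so genotypes could not be tested and line, clone and library cannot be told apart. Every interval given below covers counting error alone.

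CBFA2T2 (MTGR1) belongs to the MTG family of transcriptional corepressors, together with RUNX1T1 (ETO) and CBFA2T3. These proteins do not read a DNA sequence themselves. DNA-binding factors such as the E proteins bring them to chromatin, where they recruit the corepressors NCoR, SIN3A and histone deacetylases. A ChIP peak of CBFA2T2 is therefore taken to mark where the protein was crosslinked, directly or through a partner. It says nothing of whether the gene beside it was repressed. The CBFA2T2 ChIP of the Cbfa2t2 knockout line was not analysed here, so signal independent of the protein was not checked.

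The promoters of 8 genes are shown because they carried the peaks with the highest −log10 q among the 205 members whose summit fell inside a promoter window. Each window runs from 250 bases before to 50 bases after the transcription start (RefSeq, GRCm38.p6, the assembly of mm10) and is written 5′ to 3′ along the gene. Capitals mark exact matches, on either strand, to any of 15 short motifs spelled out further on. The windows are chr4:45296918-45297217 on the plus strand for Trmt10b, chr2:28640983-28641282 on the plus strand for Tsc1, chr10:127030765-127031064 on the minus strand for Tsfm and chr6:100671108-100671407 on the minus strand for Shq1. They are chr2:180966975-180967274 on the plus strand for Arfgap1, chr5:139775629-139775928 on the minus strand for Ints1, chr1:189007791-189008090 on the minus strand for Kctd3 and chr2:72475969-72476268 on the plus strand for Cdca7.
Trmt10b: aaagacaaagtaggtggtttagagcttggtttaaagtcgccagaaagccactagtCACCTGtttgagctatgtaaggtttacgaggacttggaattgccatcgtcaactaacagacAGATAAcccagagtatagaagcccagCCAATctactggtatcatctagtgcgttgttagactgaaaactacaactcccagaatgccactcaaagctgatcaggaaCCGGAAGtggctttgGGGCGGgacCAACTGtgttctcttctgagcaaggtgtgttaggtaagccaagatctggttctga
Tsc1: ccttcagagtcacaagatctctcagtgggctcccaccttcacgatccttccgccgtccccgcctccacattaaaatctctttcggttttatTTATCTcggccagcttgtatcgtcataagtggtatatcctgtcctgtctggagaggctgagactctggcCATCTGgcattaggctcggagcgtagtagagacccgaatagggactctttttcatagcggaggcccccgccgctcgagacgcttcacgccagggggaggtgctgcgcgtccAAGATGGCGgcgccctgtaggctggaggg
Tsfm: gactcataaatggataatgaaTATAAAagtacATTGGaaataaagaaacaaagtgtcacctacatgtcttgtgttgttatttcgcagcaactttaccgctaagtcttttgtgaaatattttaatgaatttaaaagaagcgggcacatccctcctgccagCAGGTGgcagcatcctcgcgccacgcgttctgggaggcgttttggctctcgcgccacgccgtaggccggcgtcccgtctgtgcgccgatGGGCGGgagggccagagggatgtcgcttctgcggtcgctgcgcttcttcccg
Shq1: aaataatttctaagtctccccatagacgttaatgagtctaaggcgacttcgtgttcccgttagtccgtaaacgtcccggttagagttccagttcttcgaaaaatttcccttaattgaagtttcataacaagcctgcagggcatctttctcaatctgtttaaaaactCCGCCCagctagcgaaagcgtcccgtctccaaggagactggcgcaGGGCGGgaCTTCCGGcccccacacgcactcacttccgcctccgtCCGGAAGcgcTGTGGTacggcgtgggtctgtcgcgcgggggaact
Arfgap1: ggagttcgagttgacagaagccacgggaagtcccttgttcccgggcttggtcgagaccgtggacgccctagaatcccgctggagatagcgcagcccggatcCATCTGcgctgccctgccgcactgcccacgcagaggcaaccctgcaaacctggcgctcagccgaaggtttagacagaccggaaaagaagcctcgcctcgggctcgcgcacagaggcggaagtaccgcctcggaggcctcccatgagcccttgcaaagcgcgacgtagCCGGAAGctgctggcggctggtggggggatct
Ints1: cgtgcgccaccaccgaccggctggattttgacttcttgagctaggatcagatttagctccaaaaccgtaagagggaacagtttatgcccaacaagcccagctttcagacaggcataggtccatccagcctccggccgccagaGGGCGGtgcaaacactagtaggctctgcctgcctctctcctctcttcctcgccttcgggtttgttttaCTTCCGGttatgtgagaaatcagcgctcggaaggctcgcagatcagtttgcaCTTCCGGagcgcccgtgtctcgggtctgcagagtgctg
Kctd3: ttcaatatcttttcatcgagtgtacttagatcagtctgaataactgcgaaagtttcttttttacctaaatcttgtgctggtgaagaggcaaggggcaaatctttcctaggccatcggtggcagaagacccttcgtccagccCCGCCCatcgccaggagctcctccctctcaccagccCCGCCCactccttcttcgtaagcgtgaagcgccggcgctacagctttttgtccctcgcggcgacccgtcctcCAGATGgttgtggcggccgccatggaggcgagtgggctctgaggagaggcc
Cdca7: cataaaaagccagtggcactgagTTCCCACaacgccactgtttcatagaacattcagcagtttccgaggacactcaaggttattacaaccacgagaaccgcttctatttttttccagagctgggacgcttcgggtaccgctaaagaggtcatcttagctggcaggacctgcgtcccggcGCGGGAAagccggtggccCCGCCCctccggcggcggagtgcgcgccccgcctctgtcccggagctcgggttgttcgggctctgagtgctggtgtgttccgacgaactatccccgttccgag

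The peak with the highest −log10 q lay at the start of Trmt10b, which encodes a tRNA methyltransferase, at chr4:45296869-45297425. Its fold enrichment was 13.7, its −log10 q was 23.3, and the nearest H3.3K27M peak was 22921 bp away. Fold enrichment here is the authors' own value for each peak. It divides the fragments at the summit by the background expected around it, with 1 added to both, so it understates the plain ratio where the background is low. The −log10 q is their measure of how far the peak exceeds that background. The summit lay 36 bp before the start used for the printed window, which holds 1 CCGGAAG, 1 CCAAT box, 1 GGGCGG and 2 CAGNTG E-boxes. Trmt10b was the only member in the top quartile of the H3.3WT list by −log10 q.

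Next in order came Tsc1, whose product restrains mTORC1 together with TSC2, with 8.07 fold and a −log10 q of 20.4 at chr2:28640957-28641420. Its printed window holds 1 AAGATGGCG and neither CCGGAAG nor GGGCGG. Tsfm, the mitochondrial translation elongation factor Ts, had 12.1 fold and 20.1 at chr10:127030477-127030979. Its window has 1 TATAAA and 1 GGGCGG, and its summit lay 16 bp after the start. Gins1, a subunit of the replicative helicase complex, followed with 9.38 fold and 18.8 at chr2:150909325-150909894.

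Shq1, an assembly factor of H/ACA ribonucleoproteins, had 8.18 fold and a −log10 q of 17.1. Its window holds 2 matches each to CCGGAAG and GGGCGG, and its nearest H3.3K27M peak was 162162 bp away. Arfgap1, which promotes GTP hydrolysis by ARF1 at the Golgi, had 8.26 fold and 16.2. Ints1, a subunit of the Integrator complex, had 7.56 fold and 15.4. Both have CCGGAAG in their windows, 1 match in Arfgap1 and 2 in Ints1, and their summits lay 4 and 20 bp before the start. Kctd3 had 9.33 fold and 14.6, and Cdca7, which acts with the remodeller HELLS in maintaining DNA methylation, had 7.80 fold and 14.4. Those of Kctd3 and Cdca7 were the most isolated of the 8 peaks, with the nearest H3.3K27M peak 351147 and 435763 bp away.

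The other members among the 20 with the highest −log10 q were Ier5l, Cbwd1, the proteasome core subunit Psmb4, the clock output factor Dbp beside Car11, the BAF complex subunit Smarcc2, Srebf2, the SMN complex protein Gemin7, the RNA polymerase III subunit Polr3d, Tax1bp3 with the ER membrane protein complex gene Emc6, the mitochondrial carrier Slc25a25 and the eEF2 folding factor Hgh1. Their −log10 q ran from 11.6 (Hgh1) to 17.3 (Ier5l) and their fold from 6.37 (Slc25a25) to 10.4 (Cbwd1).

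Most members were far weaker than those peaks. Their median fold was 4.61 (2.74 to 13.7) and their median −log10 q 4.53 (1.33 to 23.3), against 7.12 and 13.7 for the 4004 gene end peaks of the H3.3WT list that were shared with H3.3K27M. By −log10 q, 341 of 541 members (63.0%, 58.9 to 67.0%) stood in the lowest quartile of the H3.3WT list and 503 below its median. The median width was 382 bp (279 to 1138 bp), and 564 bp for shared gene end peaks. The 1352 H3.3K27M-only gene end peaks, the mirror image of the members, were 25.3% of the H3.3K27M gene end peaks and had a median fold of 4.405 within their own list. The 5 members of lowest −log10 q and 1 tied with the fifth were those at Strbp (2.74 fold, 1.33), Mdk, which encodes the growth factor midkine, and the transcriptional coactivator Eya4 (both 3.01 fold, 1.34), and Zfp280c, Spata5 with Nudt6, and the ESCRT-III gene Chmp2b (each 3.23 fold, 1.35).

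The share of H3.3WT gene end peaks that lacked an overlapping H3.3K27M peak was lower in each stronger band. Of peaks with a −log10 q under 2, 50 of 87 were unshared (57.5%, 47.0 to 67.3%). The share was 31.8% (181 of 570) between 3 and 5, 13.4% (83 of 621) between 7 and 10, and 3.22% (23 of 714) between 10 and 15. Above 25, none of 1132 peaks was unshared, which allows a share of up to 0.338% by the upper Wilson bound.

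**Figure D1:**
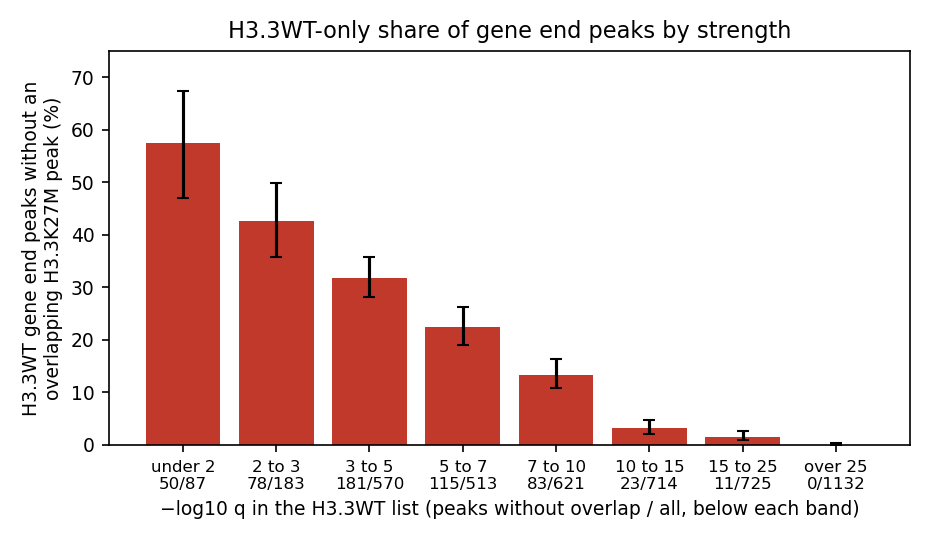
Share of H3.3WT gene end peaks without an overlapping H3.3K27M peak (vertical axis, percent) in bands of the authors' −log10 q (horizontal axis), with 95% Wilson intervals as error bars and the counts under each band. The share runs from 57.5% under 2 to 0 of 1132 above 25.

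The depth behind each peak could be read from the deposited values. MACS2 derives fold and −log10 p from 2 numbers, the pileup of fragments at the summit and the background expected there. A single whole-number pileup gave both values within 0.0001 in −log10 p for 98.99% of the H3.3WT list (6850 of 6920), 98.7% of the H3.3K27M list (8166 of 8272) and all 541 members. The median member had 14 fragments over its summit (6 to 36) on a median background of 2.09, and the median shared gene end peak 26. Trmt10b had 23 fragments (exact Poisson 95% interval 14.6 to 34.5) on a background of 0.752, the smallest in the library. Tsc1 had the most of all members, 36 (25.2 to 49.8), on 3.59. At the weak end, the Eya4 peak rested on 11 fragments (5.49 to 19.7) over a background of 2.99.

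These numbers allow a limited statement about which absences the H3.3K27M library could have shown. A pileup counts below as callable if it reaches the lowest −log10 p of the H3.3K27M list, 4.03. Peak width was not part of this limit, though no H3.3K27M peak was narrower than 286 bp. A summit above the limit could thus still have gone uncalled. The smallest backgrounds of the libraries, 0.752 and 0.917, put H3.3K27M at 1.22 times the scale of H3.3WT. Among 3928 shared gene end peaks with both pileups known, the H3.3K27M pileup was a median 1.01 times the one expected from that scale (5th to 95th percentile 0.663 to 1.54). Had each member kept its H3.3WT level, its expected H3.3K27M pileup would have been a median 1.58 times the smallest pileup that could be called there (1.03 to 4.67), with the background scaled in the same way. It was at least 2 times that limit for 104 members (19.2%) and at least 3 times for 9: Trmt10b (4.67), Tsfm (3.83), Smarcc2 (3.45), Gins1 (3.41), Cbwd1 (3.31), Gemin7 (3.25), Car11 with Dbp (3.20), Tsc1 (3.13) and Kctd3 (3.05).

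For 172 members (31.8%, 28.0 to 35.8%) even the lower Poisson bound of the pileup stayed at or above the limit. For the other 369 it did not, so an unchanged level at that bound would have gone uncalled. Whether the libraries differed there was not tested. The split describes the H3.3WT pileups, which are among the values that chose the members, and it takes in their counting error alone. An H3.3K27M count at an unchanged level has its own error, so some of the 172 could have missed the limit too. The count also depends on the H3.3K27M background, which the lists do not give where no peak was called. At shared gene end peaks that background had a median 1.10 times its scaled H3.3WT value, and with this ratio 146 members stayed above the limit. With the 95th percentile of the ratio, 2.29, only 21 did. Shared gene end peaks with at most 14 fragments, the members' median (n = 401), had a median background ratio of 1.23 and a 95th percentile of 2.66, with which 112 and 13 members stayed above the limit. Their H3.3K27M pileup was a median 1.23 times the expected one, and all of them were by definition called in both lists.

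**Figure D2:**
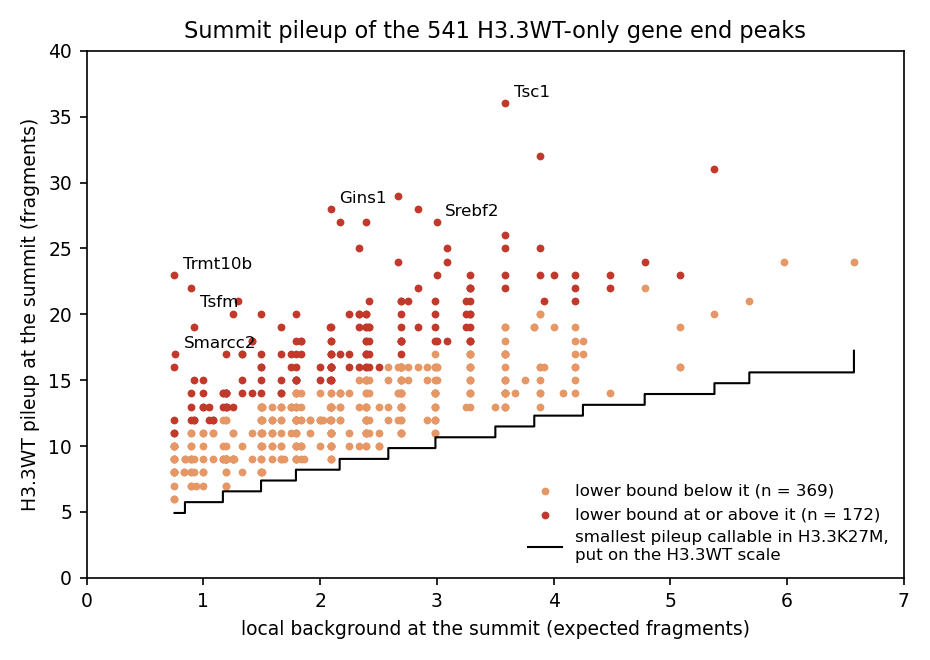
Each point is 1 of the 541 members. The horizontal axis is the local background expected at the summit and the vertical axis the H3.3WT pileup there, both in fragments. The line is the smallest pileup callable by −log10 p in the H3.3K27M library, put on the H3.3WT scale. Dark points (172) have a lower 95% Poisson bound at or above the line and light points (369) do not; Tsc1 has the highest pileup, 36.

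Gene ends were a smaller part of the H3.3WT-only peaks than of shared peaks. Of 1424 H3.3WT peaks without overlap (20.6% of the list), 38.0% lay at a gene end (35.5 to 40.5%), against 72.9% of the shared H3.3WT peaks (71.7 to 74.0%) and 48.5% of the H3.3K27M-only peaks (46.7 to 50.4%). Strength moves with this share, so the shares were also taken among peaks with a −log10 q from 3 to 10. They were then 36.8% (33.9 to 39.8%), 66.9% (64.7 to 68.9%) and 48.0% (45.8 to 50.2%). This band narrows the range of strength without making it equal, here and wherever it is used below. Within it, the unshared share of H3.3WT gene end peaks still fell from 31.8% between 3 and 5 to 13.4% between 7 and 10. The remaining 883 H3.3WT-only peaks lay inside genes or between them.

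At the gene ends themselves, the members sat where transcription starts. The direction of the gene was known for 438 members, of which 419 were at a start (95.7%, 93.3 to 97.2%) and 19 at a stop alone. The shared gene end peaks had 98.5% at a start (98.1 to 98.9%) and 97.6% (96.6 to 98.4%) within the −log10 q band. The members had 96.1% (93.3 to 97.8%) in the band, and these intervals overlapped there. Of members at a stop alone, the strongest were Ier5l (541 bp from the end), Smarcc2 (965 bp), the ephrin receptor Epha7 (8.46 in −log10 q), the selenocysteine tRNA-associated gene Trnau1ap (7.74) and Zfp53 (7.58). Smarcc2 also stood near the edge of the 1 kb window, and Trnau1ap had the noncoding RNA gene Snhg12 beside it. Gene spans were the only annotation used, so exons, introns and UTRs were not assigned.

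Within 100 bp of a start lay 202 of the 419 summits (48.2%, 43.5 to 52.99%), against 64.0% of shared gene end summits (62.3 to 65.6%) and 48.8% of H3.3K27M-only ones (45.8 to 51.8%). The start taken was the nearest annotated one, in some cases that of a noncoding gene. The median position was 17 bp after the start for members, 17 bp before it for shared peaks (−17 bp) and 29 bp after it for H3.3K27M-only peaks. In the −log10 q band the shares were 50.2% (44.5 to 55.8%), 56.1% (53.1 to 59.0%) and 45.1% (41.5 to 48.7%), and the interval of the members overlapped both others.

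**Figure D3:**
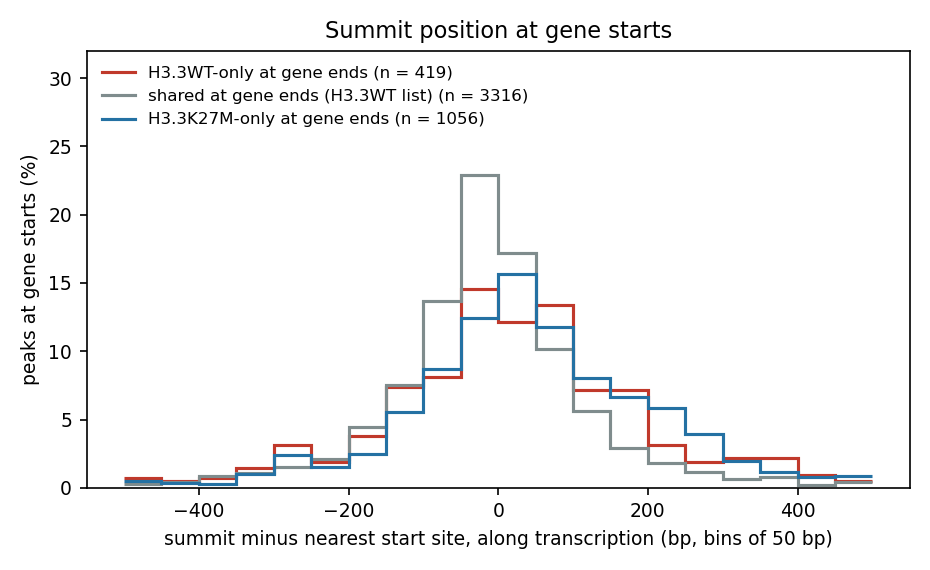
Position of summits relative to the nearest start site along the direction of transcription (horizontal axis, bp, bins of 50 bp) as a share of peaks at gene starts (vertical axis, percent), for H3.3WT-only (n = 419), shared (n = 3316) and H3.3K27M-only peaks (n = 1056); summits farther than the axis are not drawn. The shared peaks have the sharpest mode just before the start.

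Crowded gene ends took a smaller share of the members than of the shared peaks. The window of 70 members (12.9%, 10.4 to 16.0%) held the ends of 2 or more genes, against 24.2% of shared gene end peaks (22.9 to 25.5%) and 12.4% of H3.3K27M-only ones (10.8 to 14.3%). At −log10 q from 3 to 10 the shares were 13.7% (10.6 to 17.6%), 19.7% (17.6 to 21.9%) and 11.9% (10.0 to 14.2%). In 34 of the 70 both genes started within the window, as at Tax1bp3 and Emc6 (6.82 fold) or Pqbp1 and the mitochondrial import gene Timm17b (7.71 fold). In 14 a start met a stop, as at Dbp and Car11 (9.56 fold) or at the ciliary phosphatase gene Inpp5e and Sec16a, whose product marks ER exit sites (5.89 fold). The strands of Slc25a27 and Cyp39a1 (8.35 fold) were not known. A single member had 3 gene starts in its window, those of Setdb2, Cab39l and Gm45935.

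The nearest H3.3K27M peak was usually far away. The median gap was 44544 bp (7 to 2553569 bp), and 153 members had none within 100 kb. For 97 members (17.9%, 14.9 to 21.4%) it lay within 10 kb, and for 34 (6.28%, 4.53 to 8.65%) within 1 kb. Of the H3.3K27M-only gene end peaks, 14.5% (12.7 to 16.5%) had an H3.3WT peak within 10 kb. Among members without an H3.3K27M peak within 10 kb, the strongest were Trmt10b, Tsc1, Tsfm, Shq1 and Arfgap1.

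The closest cases show what the overlap rule separates. The Eya4 peak missed an H3.3K27M peak of 5.05 fold by 7 bp, Slc38a2 by 10 bp and Srebf2 by 18 bp. The pair Mrpl53 and Ccdc142 missed by 38 bp, Lins1 and Asb7 by 39 bp, Rab11a by 43 bp and Mdm2 by 48 bp. The H3.3K27M peaks across these 7 gaps had between 3.54 and 5.92 fold. On the other side of the rule, the shared peak at Supt3 overlapped by only 16 bp, Slc20a1 by 19 bp, H2bc14 by 32 bp, Zmym2 by 50 bp and Sun1 by 60 bp. By distance to the gene end, the members nearest to the limit were Pcdhga9 (998 bp), Mettl5 (985 bp) and Mpp2 (973 bp), and just outside lay Ect2 (1016 bp), Sox12 (1031 bp), Cd8a (1032 bp), Chit1 and Msantd3 (both 1037 bp). The Chit1 peak, at 10.4 fold, would have been among the 10 members of highest fold.

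**Figure D4:**
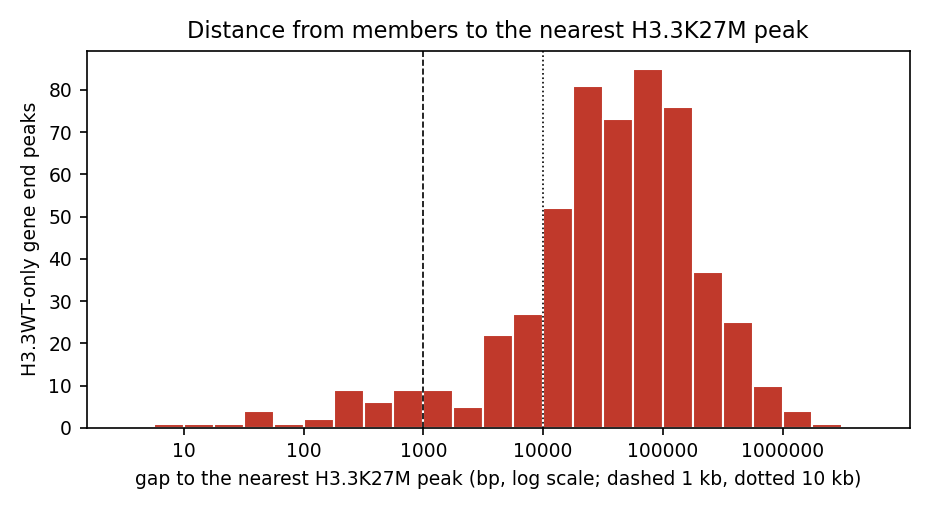
Number of members (vertical axis) by the gap to the nearest H3.3K27M peak (horizontal axis, bp, log scale), with lines at 1 kb and 10 kb. Of 541 members, 34 lie within 1 kb and the median gap is 44544 bp.

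Counted by gene, 610 of 21883 protein-coding genes (2.79%) had a member at an end, which is 11.2% of the 5424 genes with any H3.3WT gene end peak. An H3.3K27M peak that did not overlap the member marked an end of 61 of these genes (10.0%, 7.86 to 12.6%), leaving 549 without. Of the 549, 41 had an H3.3K27M peak in the gene body and 508 had none in the gene or within 1 kb of it. The strongest among the 61 were Ier5l, Srebf2, Sec16a, the ubiquitin ligase G2e3 and the coenzyme Q biosynthesis gene Coq8b. At Ier5l, a gene of 1569 bp, the H3.3WT peak lay at the stop and an H3.3K27M peak of 3.67 fold lay 2098 bp from it, summit to summit, near the other end. At Sec16a and G2e3 the other end carried a peak present in both genotypes, called at 4.30 fold for Sec16a and 4.77 fold for G2e3 in H3.3K27M, and at 4.85 and 7.08 fold in H3.3WT. Coq8b had its H3.3K27M peak, of 4.20 fold, at the opposite end and no H3.3WT peak there.

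Gene lists covered 158 of the 610 genes, and 452 belonged to none of the 46 lists. The share of H3.3WT-marked genes that had a member was read against 11.2% for all genes. Beside it stand the list's genes marked at an end in 1 genotype alone, in H3.3WT through a member without any H3.3K27M gene end peak, or in H3.3K27M without any H3.3WT gene end peak. Over all genes these were 549 and 1399. The 2 counts are not built alike, since 569 genes had any H3.3WT gene end peak and no H3.3K27M one. A gene counted in H3.3WT alone can also have an H3.3K27M peak close to its member, as Fasn did at a gap of 197 bp. The lists carry no test, since they were chosen with earlier results known and each genotype had 1 library. Stronger H3.3WT gene end peaks were less often unshared, so a list's share also moves with the strength of its peaks. That strength was not compared between lists, and a high or low share cannot be told apart from it.

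Cholesterol and fatty acid synthesis had the highest share among lists with at least 10 H3.3WT-marked genes, 6 of 16 (37.5%). Srebf2, the SREBP2 transcription factor that switches on the cholesterol pathway, had 27 fragments, 6.998 fold and a −log10 q of 13.8 at chr15:82146790-82147295. An H3.3K27M peak of 3.98 fold began 18 bp beyond it at chr15:82147313-82147747, with the summits 413 bp apart. Fasn, the fatty acid synthase, had 4.14 fold with an H3.3K27M peak of 4.04 fold at a gap of 197 bp. Sc5d, a desaturase late in cholesterol synthesis, had 4.65 fold and Scd1, the stearoyl-CoA desaturase, 4.09 fold, each more than 100 kb from any H3.3K27M peak. Me1 (4.44 fold) and the SREBP escort protein gene Scap (3.27 fold), named after their values were seen, complete the 6. For Scap the 14 fragments would have been only 1.22 times the callable limit. In the same list 5 genes were marked in H3.3WT alone and 6 in H3.3K27M alone.

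Glycolysis and the pentose phosphate pathway had 4 of 12 (33.3%). Pgd, phosphogluconate dehydrogenase, had 18 fragments, 6.70 fold and a −log10 q of 9.43. The triose phosphate isomerase gene Tpi1 (4.00 fold) was reached at its stop, in a window shared with the stop of Spsb2 and 543 bp from an H3.3K27M peak. Aldolase A (Aldoa) had 4.91 fold from 8 fragments and glucose phosphate isomerase (Gpi1) 3.56 fold from 10. Here 4 genes were marked in H3.3WT alone and 8 in H3.3K27M alone. Of the nucleotide synthesis genes, 3 of 14 had a member (21.4%), namely Adsl (5.15 fold), Cad (4.42 fold) and the ribonucleotide reductase subunit Rrm2 (3.54 fold), against 8 genes marked in H3.3K27M alone.

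Mitochondrial carriers and import had 9 of 40 (22.5%), all 9 without an H3.3K27M gene end peak, and 6 genes marked in H3.3K27M alone. The strongest were Slc25a25 (6.37 fold from 25 fragments), Slc25a27 (8.35 fold from 15), Timm17b (7.71 fold from 17) and the import receptor subunit Tomm5 (5.73 fold from 15). The other mitochondrial lists were at or under the background. Respiratory chain and ATP synthase genes had 4 of 63 (6.35%), mitochondrial ribosomal proteins 5 of 64 (7.81%), and translation factors and RNA processing 1 of 29, which was Tsfm. In these 3 lists 4, 3 and 1 genes were marked in H3.3WT alone and 6, 4 and 6 in H3.3K27M alone.

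Among zinc finger genes with Zfp symbols, 27 of 170 had a member (15.9%), led by Zfp715 (7.50 fold), Zfp973 (6.09 fold), Zfp53 (5.82 fold) and Zfp345 (6.38 fold). None of the 27 had an H3.3K27M gene end peak, and 51 Zfp genes were marked in H3.3K27M alone. Many Zfp genes are related copies, and how reads that fit several of them were placed is not given in the sources used here. RNA polymerase and general transcription genes had 11 of 86 (12.8%), near the background, led by Ints1, Polr3d, the Mediator gene Med30 (7.86 fold) and Polr2f (5.42 fold), with 9 genes marked in H3.3WT alone and 8 in H3.3K27M alone. DNA replication had 5 of 33 (15.2%): Gins1, the origin factors Orc6 (4.88 fold) and Gmnn (5.18 fold), the single-strand binding protein gene Rpa1 (3.95 fold) and the polymerase gene Pole (5.29 fold), the last named after its value was seen. All 5 were marked in H3.3WT alone, and 7 others in H3.3K27M alone.

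Several lists of housekeeping genes had few members. Cytosolic ribosomal proteins had 2 of 75 (2.67%), Rps10 and Rps19, both with fewer than 10 fragments and both also marked by an H3.3K27M gene end peak. Splicing factors had 2 of 70 (2.86%), Slu7 (5.73 fold) and Hnrnpa2b1 (4.50 fold). RNA helicases had 1 of 37 (2.70%), Ddx20, chaperones 2 of 55 (3.64%), Dnajc14 and Bag6, and nuclear pore and transport genes 2 of 44 (4.55%), Xpo6 and Kpna4. Intraflagellar transport and BBS genes had none of 15. Genes marked in H3.3K27M alone were also few in some of these lists, 1 each among cytosolic ribosomal proteins, RNA helicases and intraflagellar transport genes. There were 9 among splicing factors, 6 among chaperones and 4 among nuclear pore genes, against 1, 0 and 2 marked in H3.3WT alone.

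Lists of chromatin genes and of CBFA2T2's own partners lay on both sides of the 11.2%. Among MTG family members, partners and corepressors, 3 of 26 had a member (11.5%): the methyl-CpG binding protein gene Zbtb4 (5.87 fold from 21 fragments), the SIN3 complex subunit Sap30 (5.23 fold from 23) and the NuRD remodeller Chd3 (4.20 fold from 13). The same list had 10 genes marked in H3.3K27M alone. H3K4 and other histone methyltransferases had 6 of 36 (16.7%), led by Smyd5 (6.78 fold), Kmt2c (4.33 fold, 175 bp from an H3.3K27M peak of 9.17 fold), Prdm9 (4.10 fold) and Setdb2 (3.94 fold), with 5 genes marked in each genotype alone. The 2-oxoglutarate-dependent oxygenases had 5 of 25, led by the HIF prolyl hydroxylase gene Egln2 (6.19 fold), Riox1 (5.21 fold), P3h4 (3.51 fold) and Asph (3.05 fold), against 13 genes marked in H3.3K27M alone. Chromatin remodellers had 4 of 32 (12.5%): Smarcc2, Bcl7c (5.31 fold), Actl6b (3.54 fold) and Ino80b (3.32 fold), with 3 genes marked in H3.3WT alone and 6 in H3.3K27M alone. Polycomb and H3K27 methylation genes had 1 of 21, Bcorl1 (4.65 fold), against 7 marked in H3.3K27M alone. Genes for H3.3 and its chaperones had none of 7, against 4 marked in H3.3K27M alone. In the mTORC1 list 3 of 30 genes had a member (10.0%): Tsc1, the Ragulator subunit Lamtor4 (4.91 fold) and the mTOR inhibitor Deptor (5.999 fold). A further 5 genes of that list were marked in H3.3K27M alone.

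**Figure D5:**
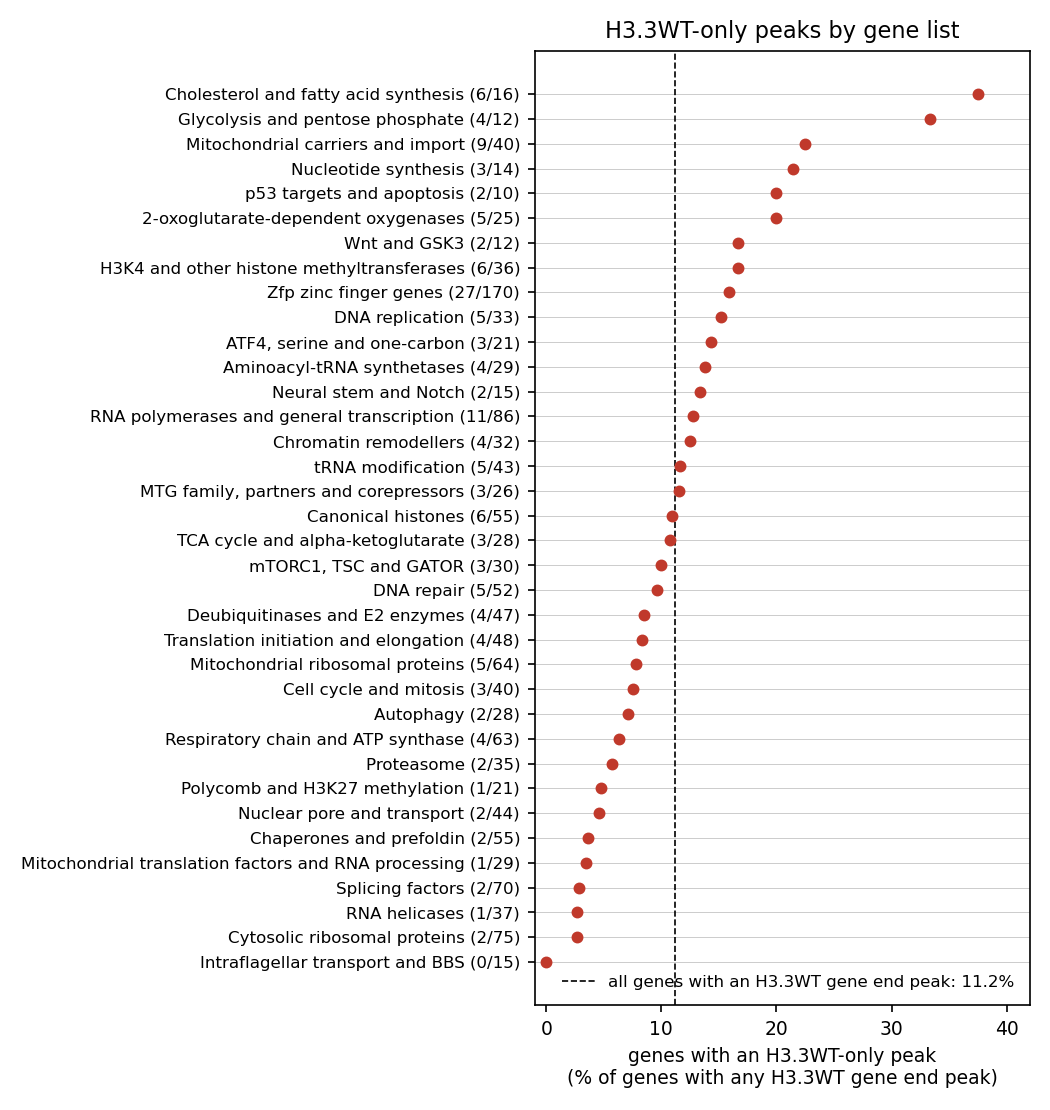
For each list with at least 10 genes that have an H3.3WT gene end peak, the share of those genes with an H3.3WT-only peak at an end (horizontal axis, percent; counts in parentheses); the dashed line is the share over all such genes, 11.2%. Cholesterol and fatty acid synthesis (6 of 16) and glycolysis (4 of 12) lie highest, cytosolic ribosomal proteins (2 of 75) and intraflagellar transport (0 of 15) lowest.

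Few markers of cell types and lineages had any H3.3WT gene end peak, so their counts of members are small. Neural stem and Notch genes had 2 of 15 (13.3%), the Notch glycosyltransferase gene Poglut1 (6.42 fold) and Hes6 (4.34 fold), against 8 genes marked in H3.3K27M alone. Of 38 neuron markers only 2 had any H3.3WT gene end peak, and both were members: Eomes, a transcription factor of intermediate progenitors, at its stop (5.60 fold from 13 fragments), and Gap43, a growth cone protein (5.22 fold from 9 fragments). A further neuron marker was marked in H3.3K27M alone. Of 60 developmental regulators known as Polycomb targets, again 2 had one and both were members, the midbrain factor En1 (6.34 fold from 12 fragments) and the mesoderm factor Foxf1 (5.43 fold from 9 fragments), while 3 other genes of the list were marked in H3.3K27M alone. None of 24 glia markers and none of 1106 olfactory receptor genes had an H3.3WT gene end peak at all, so neither list could hold a member, and 2 glia markers were marked in H3.3K27M alone. Of 27 markers of other tissues, 1 had an H3.3WT gene end peak and it was no member. Peaks do not measure expression, so these counts do not check the cell type.

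The promoter windows under the members were rich in CpG. The median GC content of the 205 windows was 63.7% with 24 CpG dinucleotides, against 56.7% and 13 for all 21005 promoters of protein-coding genes. The windows under peaks can also be those of noncoding genes, such as the long noncoding RNA gene Gm31510 beside Abhd2. Windows under shared gene end peaks had 60.7% and 23, and under shared peaks with a −log10 q from 3 to 10 they had 63.5% and 25.5, close to the members. The H3.3K27M-only windows had 65.0% and 26.

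Motifs were searched as exact letters on both strands, in windows of the same length. The GC box GGGCGG of SP and KLF factors stood in 73.2% of the 205 windows (66.7 to 78.8%), against 46.6% of all promoters, and the ETS core CCGGAAG in 25.9% (20.3 to 32.3%), against 11.7%. Windows under shared peaks had GGGCGG in 65.3% (63.3 to 67.2%) and CCGGAAG in 33.9% (31.97 to 35.9%). In the −log10 q band the members' 147 windows had GGGCGG in 71.4% (63.7 to 78.1%) and CCGGAAG in 26.5% (20.1 to 34.2%). The shared ones had 70.0% (66.2 to 73.5%) and 29.4% (25.9 to 33.1%), and the intervals overlapped for both motifs. The E-box CAGNTG of E proteins, which are partners of MTG corepressors, was in 43.9% (37.3 to 50.7%), against 35.5% (33.5 to 37.5%) under shared peaks and 48.7% of all promoters. In the band it was in 43.5% of members' windows (35.8 to 51.6%) and 38.1% of shared ones (34.4 to 42.05%), again with overlapping intervals. The H3.3K27M-only windows had GGGCGG in 72.5% (68.4 to 76.3%), CCGGAAG in 21.0% (17.7 to 24.8%) and CAGNTG in 41.2% (37.0 to 45.6%). For all 3 motifs these intervals overlapped those of the members. No searched motif contains another, though matches may overlap in a window.

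Among the rarer motifs, the YY1 element AAGATGGCG was in 1.95% of members' windows (0.761 to 4.91%), in 6.16% under shared peaks (5.25 to 7.23%) and in 1.85% of all promoters. In the band the shares were 2.04% (0.696 to 5.83%) for members and 4.22% (2.90 to 6.11%) for shared peaks. The cAMP response element TGACGTCA was in 2.44% (1.05 to 5.58%), against 5.81% under shared peaks (4.92 to 6.85%) and 2.25% of all, and in the band in 3.401% (1.46 to 7.71%) against 5.52% (3.98 to 7.61%). The ZNF143 letters ACTACAATT were in none of 205 windows, which allows up to 1.84%, and in 2.68% under shared peaks (2.10 to 3.43%) and 0.514% of all. In the band they were in none of 147 (up to 2.55%) and in 0.974% of shared windows (0.447 to 2.11%). Near matches were not counted, such as ACTACAACT in the Trmt10b window, which differs in a single letter. For these 3 motifs the intervals thus overlapped within the band. Under H3.3K27M-only peaks AAGATGGCG was in 3.64%, TGACGTCA in 5.86% and ACTACAATT in 0.404%. For the other motifs the shares are given for members' windows, windows under shared peaks and all promoters, in this order. The CCAAT box was in 46.8%, 40.4% and 38.1%, and within the band in 48.3% of members' and 45.1% of shared windows. Under H3.3K27M-only peaks the CCAAT box was in 36.2% (32.1 to 40.5%), and the members' interval was 40.1 to 53.7%. CACGTG was in 14.6%, 13.2% and 7.90%, CGCATGCG of NRF1 in 5.37%, 5.81% and 2.53%, and TTCCCGC of E2F in 7.80%, 10.1% and 6.01%. TATAAA was in 4.88%, 4.93% and 12.5%, and AGATAA of GATA factors in 4.39%, 5.15% and 9.60%. TGTGGT of RUNX factors was in 12.2%, 12.3% and 14.8%, GTGGGAA of RBPJ in 5.37%, 5.85% and 6.06%, and TGATGNAA of ATF4 with C/EBP factors in 1.46%, 1.80% and 3.50%. For each of these 9 motifs, members and shared peaks lay on the same side of the share over all promoters. The members' interval nevertheless included that share for TTCCCGC (4.86 to 12.3%), TGTGGT (8.40 to 17.4%), GTGGGAA (3.02 to 9.35%) and TGATGNAA (0.499 to 4.21%). These matches describe letters and are not binding sites.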

How the data were processed

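CBFA2T2 peak lists of H3.3WT and H3.3K27M cells, 1 library each, were analysed. The authors trimmed reads with Trim Galore and called peaks with MACS2 on mm10, per the submitters' processing notes. Versions, aligner, duplicate handling and settings are not given in the sources used here. The deposited score repeats −log10 q, times 10 and without decimals, and was not used. The deposited fold is a ratio of summit signal to local background, with 1 added to both. Fold, −log10 p and −log10 q were used as they stand to describe and rank peaks within a list.

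Peaks overlapping by at least 1 bp were called shared. Gene spans and promoter windows came from RefSeq GRCm38.p6, and the promoter table gave a strand for 17491 of 21883 protein-coding genes. Pileups were solved from fold and −log10 p with a pseudocount of 1. Intervals are Wilson for shares and exact Poisson for pileups. Python 3.11.15, pandas 2.3.3, scipy 1.17.1 and statsmodels 0.14.6 were used. The overlap, gene end and pileup steps were tested on simulated data, and the motif search was not.

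Named genes are the 20 members of highest −log10 q, the 10 of highest fold, up to 4 per gene list, the 5 strongest of each class described and the 5 weakest. Members, gene lists and motifs were chosen with earlier results of these data known, and none of the lists carries a test. The lists name 1665 symbols, of which 1663 were found, beside those defined by symbol patterns. Alternatives were stricter peaks, equal numbers of peaks, other overlap rules and other windows at the gene end.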

Additional observations from a re-analysis of the deposited data

How the results depend on the processing

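Of 82 values recomputed under 16 alternatives for 8 results, 53 stayed within their error or within 1.5 times a count, and 29 moved. The shares of shared and H3.3K27M-only peaks set beside them were not recomputed. With a −log10 q of at least 5 in both lists the median fold was 5.71, the gene end share of H3.3WT-only peaks 43.3%, the share at 2 or more genes 18.6% and the share with an H3.3K27M peak within 10 kb 14.5%. With a fold of at least 5 in both lists these were 6.09, 50.3%, 19.5% and 13.6%, and 835 genes had a member and no H3.3K27M gene end peak. Raising the limit in both lists also removes partner peaks, so the cause of each shift was not tested. Equal numbers of peaks from both lists gave a gene end share of 42.9%. Requiring no H3.3K27M peak within 1 kb gave 12.4% within 10 kb. Allowing overlaps that cover under 50% of the H3.3WT peak gave a gene end share of 40.7% and 32.3% within 10 kb. Counting peaks without an H3.3K27M summit within 200 bp gave 861 members, 46.0% at gene ends and 48.4% within 10 kb. A window of 500 bp gave 33.1% at gene ends and 98.95% at a start, and one of 3 kb gave 47.1%, 92.8%, 20.7% at 2 or more genes and 22.4% within 10 kb. A wider window can only raise the gene end share, and why the other shares moved was not tested. The following alternatives were chosen after seeing the data. A −log10 q of at least 5 in the H3.3WT list alone gave 232 members, 34.8% at gene ends, a median fold of 5.73 and 246 genes without an H3.3K27M gene end peak. The H3.3K27M background at the 95th percentile ratio left 21 members above the calling limit, in place of 172, and the ratios of weak shared peaks left 112 (median) and 13 (95th percentile). No paired analysis was possible because each genotype had 1 CBFA2T2 library, and for the same reason no replicate could be left out. The median pileup of all 541 members was 14 fragments and the 25th percentile 11, so the weak members rest on few fragments.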

Other observations

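Several members lay within 1 kb of genes that are not protein-coding. A long noncoding RNA gene was near 64 members, a microRNA gene near 5 and a tRNA gene near 4. The microRNA genes were Mir320 beside Polr3d (8.42 fold), Mir7036b beside Add1 (5.85 fold), Mir762 beside Bcl7c (5.31 fold), Mir7071 beside Heatr3 (3.28 fold) and Mir8120 beside Lekr1 (3.26 fold). The tRNA genes were n-TSaga9 beside 2610301B20Rik (4.61 fold), n-TLaag4 beside the RNA polymerase III subunit gene Polr3e (3.88 fold), n-TGccc4 beside the RNA-binding protein gene Tia1 (3.52 fold) and n-TQctg9 beside the vesicle transport gene Rab11a (3.11 fold). A snRNA gene, Gm24019, lay beside the Mediator gene Med16 (3.93 fold). Which of the neighbouring genes a peak belongs to cannot be told apart from its position.

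Members were spread over the genome. Of 541, 472 had no other member within 100 kb, 33 pairs lay closer than that, and the only group of 3 held Crtc1, Ell and Isyna1 on chromosome 8, with 4.36, 4.999 and 4.25 fold. The share of H3.3WT gene end peaks that were members ran from 8.49% on chromosome 3 (5.44 to 13.0%) to 18.2% on chromosome 14 (12.7 to 25.6%) among chromosomes other than Y, around the 11.9% of the whole list. Chromosome X had 16 of 95 (16.8%, 10.6 to 25.6%). Another H3.3WT peak lay within 10 kb of 12.8% of members (10.2 to 15.8%) and of 16.9% of shared gene end peaks (15.8 to 18.1%).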
